A study of Mus musculus with 33 samples.

Results

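The oocyte Fbxw cluster is a row of F-box and WD repeat genes on mouse chromosome 9. The genes described here, Fbxw14, Fbxw15, Fbxw16, Fbxw18, Fbxw19, Fbxw20, Fbxw21, Fbxw22, Fbxw24 and Fbxw28, were chosen by name, with earlier results of these data known. They are 10 of the 35321 genes in the count table, and all 10 passed the filter of a mean normalized count of at least 10. RNA was measured in 33 single germinal vesicle (GV) oocytes, the fully grown oocytes of the ovary held before meiosis resumes, from unstimulated C57BL6/Babr females 3 weeks of age. Of these, 10 came from Nlrp5 +/+ females, 16 from Nlrp5 +/- females and 7 from Nlrp5 -/- females. The mutant allele is a CRISPR/Cas9 deletion that shifts the reading frame of Nlrp5, which encodes a core protein of the subcortical maternal complex, and it came from 1 engineered line. The Nlrp5 -/- and Nlrp5 +/- females were littermates, while most Nlrp5 +/+ females were taken from the colony in which the line was made.

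F-box proteins are the substrate-recognising subunits of SCF ubiquitin ligases. In such a ligase the F-box holds the protein to SKP1, SKP1 links it to the scaffold CUL1, and CUL1 binds the RING protein RBX1 that recruits the ubiquitin-conjugating enzyme. In FBXW proteins the substrate is bound by WD40 repeats. The chromosome 9 genes are an expanded mouse family known for RNA in oocytes, and no separate role is given here for any single member. As a GV oocyte matures, its chromatin passes from a non-surrounded nucleolus (NSN) to a surrounded nucleolus (SN) arrangement and transcription stops, after which it relies on stored RNA.

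No animal is named for any oocyte, so a genotype at a given stage counts as 1 sample however many oocytes it holds. No test was run, and each SD or range covers the spread between cells alone. The labels give no maturity stage for single oocytes either. It was rebuilt from the study's 105 NSN and 59 SN marker genes, none of which is a member of the cluster, and the oocytes are called NSN-like or SN-like. This gave 4 NSN-like and 6 SN-like Nlrp5 +/+ oocytes, 10 and 6 Nlrp5 +/- oocytes, and 4 and 2 Nlrp5 -/- oocytes. The 2 classes are ranges of 1 score, 4 oocytes lay nearest its dividing value, and a difference from the study may come from these rebuilt stages. Oocyte 15, from an Nlrp5 -/- female, is not among the oocytes that the study's staging plot names, and it was kept apart, which leaves 32 oocytes. Its own score would have made it NSN-like. Total counts per oocyte ran from 4223595 to 15573360. Nlrp5 itself had 10369 to 29865 normalized counts in the Nlrp5 +/+ oocytes, 5189 to 13812 in the Nlrp5 +/- oocytes and 1396 to 2621 in the staged Nlrp5 -/- oocytes. Oocyte markers were high in every staged oocyte, with 12 of them summing to 18615 to 31473 CPM (counts per one-millionth of the library total), and 16 granulosa markers summed to 78.6 to 722 CPM. Each of the 10 first sequencing indices occurred with 1 genotype, so index and genotype cannot be told apart. The labels do not say what a shared first index stands for in the handling of the oocytes.

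The members are close copies of each other, which limits how far their counts can be assigned. Over 45 pairs the coding sequences of the 10 genes were 79.5% to 99.1% identical, with a median of 84.5%. The closest pair was Fbxw14 and Fbxw28, which differ at 13 aligned positions over a coding length of 1398 bases. The stretch printed here shows what can separate a read of 1 gene from a read of another. It was picked as the 60 coding bases with most differences between Fbxw14 and Fbxw28, and is not typical of that pair. It is coding bases 796 to 855 of GENCODE transcripts (GRCm39, chromosome 9, minus strand), and capitals mark each base that differs from Fbxw14.
Fbxw14: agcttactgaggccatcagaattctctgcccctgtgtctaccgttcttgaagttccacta
Fbxw28: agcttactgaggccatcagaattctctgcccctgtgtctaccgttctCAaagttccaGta
Fbxw22: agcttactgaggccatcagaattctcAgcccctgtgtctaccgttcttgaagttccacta
Fbxw24: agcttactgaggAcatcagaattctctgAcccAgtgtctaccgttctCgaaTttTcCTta
Over these 60 bases Fbxw28 differs from Fbxw14 at 3, Fbxw22 at 1 and Fbxw24 at 8. Of all 50-base windows of the Fbxw14 transcript, 67.6% occurred exactly in another gene, and of those of Fbxw28 67.1% did. The share was 26.7% in Fbxw16, where the gene sharing most was Gm42494, and 17.0% in Fbxw15. In the other 6 members it was 5.77% to 13.2%. With windows of 150 bases, the length of 1 read, 30.2% of Fbxw14 and 32.2% of Fbxw28 were still shared, 4.90% of Fbxw16, 1.49% of Fbxw15 and none of the other 6. Values of Fbxw14 and Fbxw28 are therefore uncertain as single genes, and the difference of their sum is given for each comparison.

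The start regions of the genes were also alike. RefSeq promoters (GRCm38.p6, 250 bases before to 50 after the start) were found for 9 of the 10 members, and Fbxw22 was not matched. Pairs of these promoters were 84.9% to 97.7% identical. The 150 bases before the start are printed for 4 members of high, middle and low level, on the minus strand, and capitals mark words of 8 or more bases that all 9 member promoters hold.
Fbxw24, chr9:109626060-109626209: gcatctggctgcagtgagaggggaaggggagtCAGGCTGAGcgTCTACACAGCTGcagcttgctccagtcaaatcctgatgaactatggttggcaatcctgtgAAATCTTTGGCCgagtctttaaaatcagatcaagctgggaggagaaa
Fbxw15, chr9:109568263-109568412: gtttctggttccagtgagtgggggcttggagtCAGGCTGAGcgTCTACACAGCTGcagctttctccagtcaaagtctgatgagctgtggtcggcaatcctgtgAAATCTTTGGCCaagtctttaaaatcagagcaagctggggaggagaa
Fbxw28, chr9:109339660-109339809: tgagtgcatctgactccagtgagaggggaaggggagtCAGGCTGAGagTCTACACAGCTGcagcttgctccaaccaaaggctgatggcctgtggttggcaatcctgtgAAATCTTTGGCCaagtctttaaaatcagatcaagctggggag
Fbxw20, chr9:109234755-109234904: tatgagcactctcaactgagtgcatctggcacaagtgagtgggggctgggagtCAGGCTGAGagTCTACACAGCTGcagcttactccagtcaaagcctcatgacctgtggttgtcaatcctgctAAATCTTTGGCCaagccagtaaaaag
The 12-base word AAATCTTTGGCC occurred in 11 of 27025 mouse promoters (0.0407%), of which 1 lay outside the cluster. The word CACAGCTG, which contains the E-box CANNTG, stood 56 bases before it in all 9 member promoters. No promoter outside the cluster held both words at that distance, and 10 promoters in all did. The word CAGGCTGAG occurred in 221 and TCTACACAG in 81 of all promoters. All 9 member promoters held the general E-box CANNTG, as did 72.1% of all promoters on either strand, and none held the E-box form CAGGTG (5413 of all promoters). None held TAATTG (8.15%), TAATTA (5.31%) or TATAAA (14.2%), and TGATTG occurred in that of Fbxw16 alone (14.4%). These matches are letters in a window and not binding sites. Among the other cluster genes, the promoter of Fbxw26 held 7 of the 7 shared words and that of Fbxw25 6 of 7. For Fbxw13 and Fbxw27 no promoter was matched. The promoters of Fbxw17 and Fbxw23, searched with them, held 0 of 7.

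All 10 members lie on the minus strand within 563 kb, from 109139447 to 109702700 (GRCm38). The window of 100 kb on either side held 26 genes of the table. The other Fbxw genes of the row, Fbxw13, Fbxw25, Fbxw26 and Fbxw27, are no members of the set but stand among or just beyond its genes. Levels differed sharply at the Fbxw21 end of the row. Plxnb1, the gene beside Fbxw21, had a mean of 182 normalized counts, against 10064 for Fbxw21. Within the row, Fbxw25 had a mean of 840 normalized counts between Fbxw24 at 30131 and Fbxw18 at 12071. Fbxw26 and Fbxw27, beyond Fbxw18, had 5452 and 4671.

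**Figure D1:**
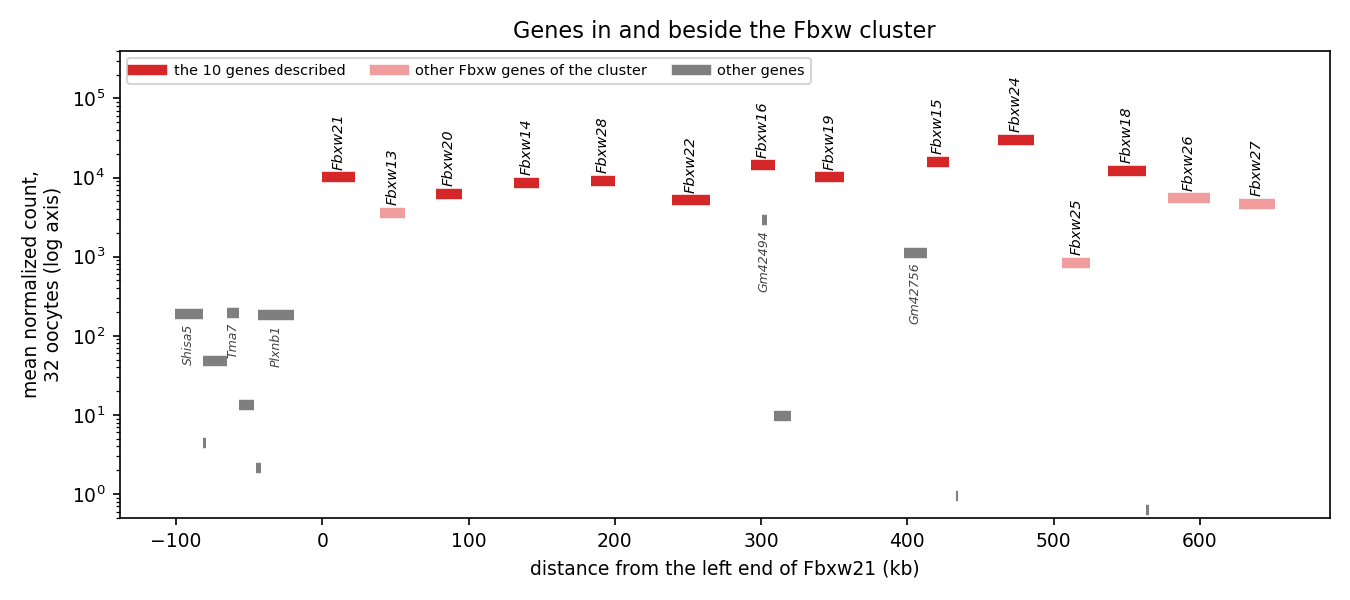
Map of the Fbxw cluster and its surroundings, with position along chromosome 9 (kb from the left end of Fbxw21) against the mean normalized count over 32 oocytes on a log scale; each segment spans 1 gene, red for the 10 members, pink for other Fbxw genes and grey for the rest. The 10 members stand between 5168 (Fbxw22) and 30131 (Fbxw24), and Fbxw25 is the low gene within the row at 840.

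As a group these 10 genes were among the most abundant in the oocyte. Together they took a median of 1.49% of all counts on genes, from 1.09% in oocyte 38 to 2.20% in oocyte 14, a range of 2.02-fold. Pooled over oocytes the share was 1.59% in NSN-like and 1.42% in SN-like Nlrp5 +/+ oocytes, 1.62% and 1.29% in Nlrp5 +/- oocytes, and 1.74% and 1.52% in Nlrp5 -/- oocytes. The exact 95% binomial interval of the first of these is 1.58% to 1.59%. Such an interval covers counting error only, whereas the 4 oocytes behind that value ran from 1.15% to 1.75%. The lowest count of any member in any staged oocyte was 2561 (Fbxw22 in oocyte 29), with an exact Poisson interval of 2463 to 2662. That interval, too, covers counting error only.

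Levels of different genes were compared as normalized counts per kb of transcript. Fbxw24 stood first with a median of 19139 per kb over 32 oocytes (range 13108 to 30475), rank 7 of 13663 genes. For scale, the oocyte growth factor gene Gdf9 was rank 1 at 32854 per kb, and the zona pellucida genes Zp2 and Zp3 had 18529 and 17039. Fbxw24 was above the second member, Fbxw15, in 32 of 32 oocytes.

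The next 4 members formed a graded series. Fbxw15 had a median of 10312 per kb, Fbxw16 9377, Fbxw18 7578 and Fbxw19 6344. Fbxw15 was above Fbxw16 in 22 of 32 oocytes, Fbxw16 above Fbxw18 in 29, and Fbxw18 above Fbxw19 in 25. Below them came Fbxw28 with 5850 per kb, Fbxw14 with 4543, Fbxw21 with 4272 and Fbxw20 with 3975. Fbxw19 was above Fbxw28 in only 19 of 32 oocytes, Fbxw28 above Fbxw14 in 29, Fbxw14 above Fbxw21 in 22 and Fbxw21 above Fbxw20 in 22. This order depends on the transcript length used. By mean normalized count alone Fbxw21 (10064) stood above Fbxw28 (9089) and Fbxw14 (8580). Their transcripts have 2262, 1497 and 1786 bases, and Fbxw28 and Fbxw14 are uncertain as single genes. Fbxw22 was last with 2597 per kb (range 1717 to 4783), rank 157, and was below Fbxw20 in 32 of 32 oocytes. The oocyte ranges of all neighbours in this order overlapped.

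The other cluster genes reached down further. Fbxw27 had 3041, Fbxw26 2986, Fbxw13 2349 and Fbxw25 523 per kb (rank 1206). On the same scale the partners of the F-box were unequal. Skp1a, which encodes SKP1, had 16416 per kb (rank 13), Cul1 2318 and Rbx1 1174. Among the classical FBXW genes outside the cluster, Btrc, which encodes beta-TrCP, had 727 per kb.

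**Figure D2:**
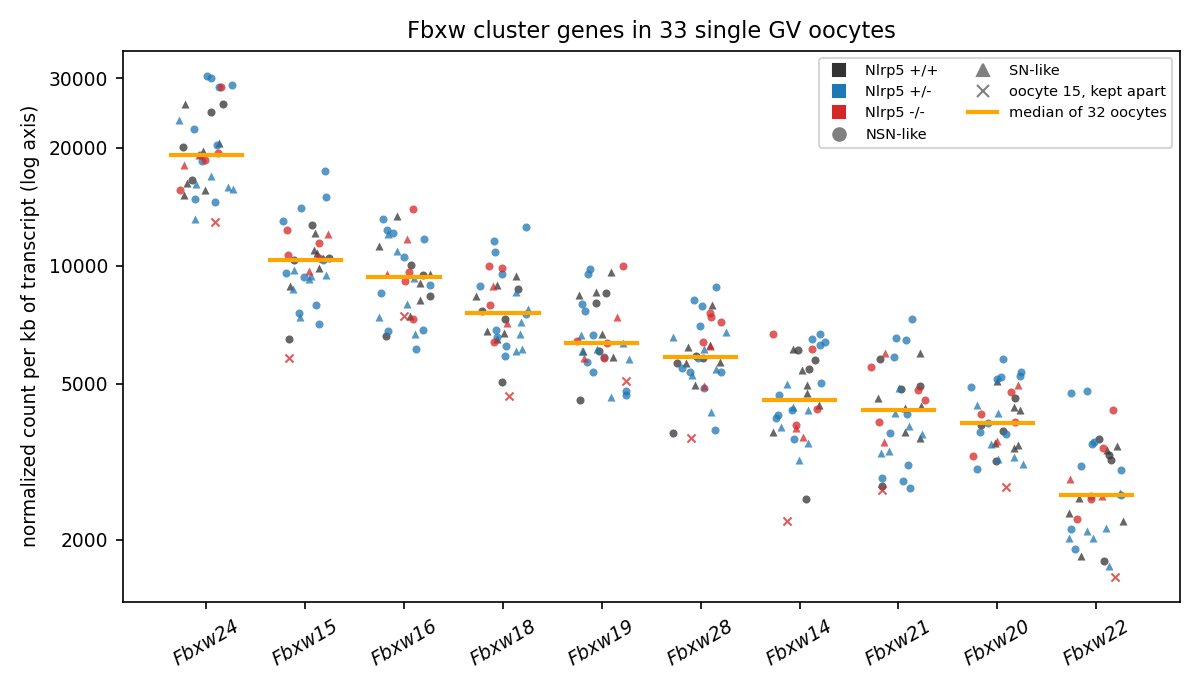
Normalized count per kb of transcript (log axis) of the 10 members in 33 oocytes, coloured by genotype, with circles for NSN-like, triangles for SN-like and a cross for oocyte 15; the bar is the median of the 32 staged oocytes. The medians descend from 19139 (Fbxw24) to 2597 (Fbxw22), and the colours are mixed within each gene.

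The first comparison set SN-like against NSN-like oocytes within each genotype, the question being how the stored Fbxw RNAs stand after transcription has ceased. Counts were scaled to the other genes of each oocyte, so a change in its total RNA would not show. A difference counts as past the limit at 0.5 on the log2 scale. In Nlrp5 +/+ oocytes the members hardly differed between stages. The log2 difference, SN-like over NSN-like, ran from -0.21 in Fbxw24 to 0.21 in Fbxw28 with a median of 0.07, against 0.03 over all 13629 genes compared. Of the 10 members 6 were higher and 4 lower, and none was past the limit, where 14% of all genes were higher and 20% lower by at least 0.5. All 10 had overlapping oocytes, where 3.71% of all genes were higher and 6.08% lower without overlap. Among genes with a mean of at least 1000, a set added after seeing the data because every member lies in it, the median was 0.19. In that set fewer genes passed the limit: 11.5% were higher and 2.6% lower here, and over all 9 comparisons 0.261% to 11.5% were higher and 0.47% to 15.2% lower. Scaled by total counts in place of size factors, 4 members were higher and 6 lower. Without oocyte 87 the median was -0.05, and averaged within the 3 first indices, all of which held both stages, it was 0.18 with 8 members higher and 2 lower. The sum of Fbxw14 and Fbxw28 differed by 0.10.
The cluster sum averaged 119607 ± 24964 normalized counts (SD, n = 4) in NSN-like and 120304 ± 20726 (SD, n = 6) in SN-like oocytes.

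In Nlrp5 +/- oocytes all 10 members were lower in SN-like oocytes, by sign. The median was -0.30, against -0.04 over 13668 genes, and the values ran from -0.10 in Fbxw16 to -0.60 in Fbxw22. Fbxw22 was the 1 member past the limit, where 19.1% of all genes were lower and 8.87% higher by that much. Among genes with a mean of at least 1000 2.84% were lower, and their median was 0.12. In the 10 NSN-like oocytes Fbxw22 ran from 3473 through a median of 5600 to 8776 normalized counts, and in the 6 SN-like oocytes from 3151 through 3789 to 4831. The 2 sets of oocytes overlapped, as they did in all 10 members (0.498% of all genes were lower and 0.351% higher without overlap). Fbxw24 differed by -0.43, from a mean of 33828 ± 9286 (SD, n = 10) to 25120 ± 5238 (SD, n = 6). The sum of Fbxw14 and Fbxw28 differed by -0.24.

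The difference between SN-like and NSN-like Nlrp5 +/- oocytes was smaller when averaged within first indices. The 4 highest cluster sums among all 32 oocytes, 165465 to 169863 normalized counts, belonged to oocytes 53, 54, 63 and 64, all NSN-like and Nlrp5 +/-. They shared 2 first indices, and 1 of these held no SN-like oocyte. The other NSN-like oocytes of these indices, 56, 61 and 62, had lower sums of 117464, 113505 and 94903. Averaged within the indices that held both stages, the member median was -0.09 and Fbxw22 differed by -0.18. The 3 such indices were not alike. In the index of oocytes 53 to 56 the NSN-like oocytes had a mean sum of 150363 (n = 3) and the SN-like oocyte 129768, and in that of 45 to 48 the means were 101990 (n = 2) and 103436 (n = 2). Oocytes of the index with 37, 38, 39 and 40 had nearly the same sum in the 1 NSN-like oocyte (96879; oocyte 39, only 0.107 from the dividing value of the stage score) as on average in the 3 SN-like ones (98834). The study's staging plot seems to place oocyte 39 on the SN side. With it left out, a choice made after seeing the data, the member median within indices was -0.12 and Fbxw22 differed by -0.30. The part of the index in the stage difference was not tested.

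**Figure D3:**
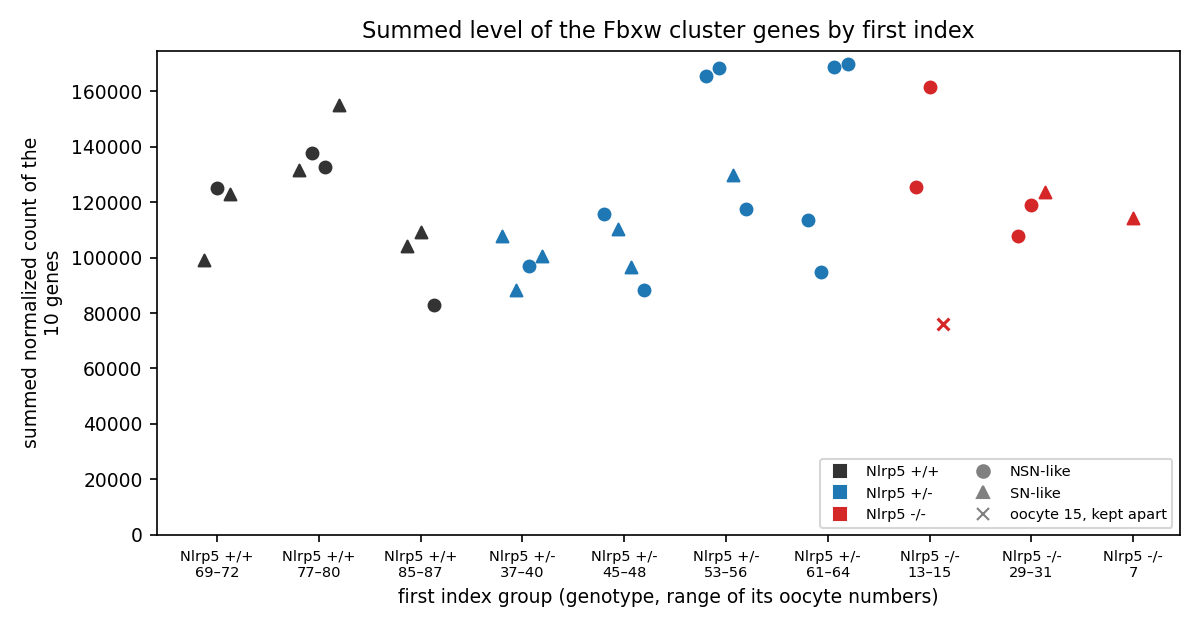
Summed normalized count of the 10 members in each of 33 oocytes, arranged by first sequencing index and coloured by genotype, with circles for NSN-like, triangles for SN-like and a cross for oocyte 15. Oocytes 53, 54, 63 and 64 (165465 to 169863) stand above the other Nlrp5 +/- oocytes, of which the highest is oocyte 55 at 129768.

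In Nlrp5 -/- oocytes only 2 were SN-like. The member median was -0.10, against -0.05 over 13897 genes, with 3 members higher and 7 lower, and it was 0.03 without oocyte 14. None was past the limit in either direction (14.4% of all genes were higher and 23.8% lower). Fbxw14 and Fbxw28, the near-identical pair, were the 2 members whose oocytes did not overlap, both lower in SN-like oocytes, where 10.8% of all genes and 4.04% of those with a mean of at least 1000 did the same (9.46% of all genes were higher without overlap).
Fbxw14 had 6991, 7676, 10945 and 11969 normalized counts in the 4 NSN-like oocytes and 6544 and 6894 in the 2 SN-like oocytes, a difference of -0.48. The gap between the groups was narrow, and the 2 high NSN-like oocytes, 13 and 14, shared a first index.
Fbxw28 had 9573, 10722, 11048 and 11297 in NSN-like and 7359 and 9341 in SN-like oocytes, a difference of -0.35. Summed, the pair differed by -0.41 and again did not overlap, with 16564 to 22691 against 14253 to 15885 normalized counts. Within the 1 index that held both stages, the median of all members was 0.18. There Fbxw14 and Fbxw28 were still lower in the SN-like oocyte 31 (6544 and 9341). Oocytes 29 and 30 had 7676 and 6991 for Fbxw14, and 11048 and 9573 for Fbxw28. Oocytes 13, 14 and 7 were the 3 staged Nlrp5 -/- oocytes with the most granulosa marker RNA: the sum of 16 markers was 313, 722 and 220 CPM, against 92.1 to 139 in the other 3. Its part in these differences was not tested.

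**Figure D4:**
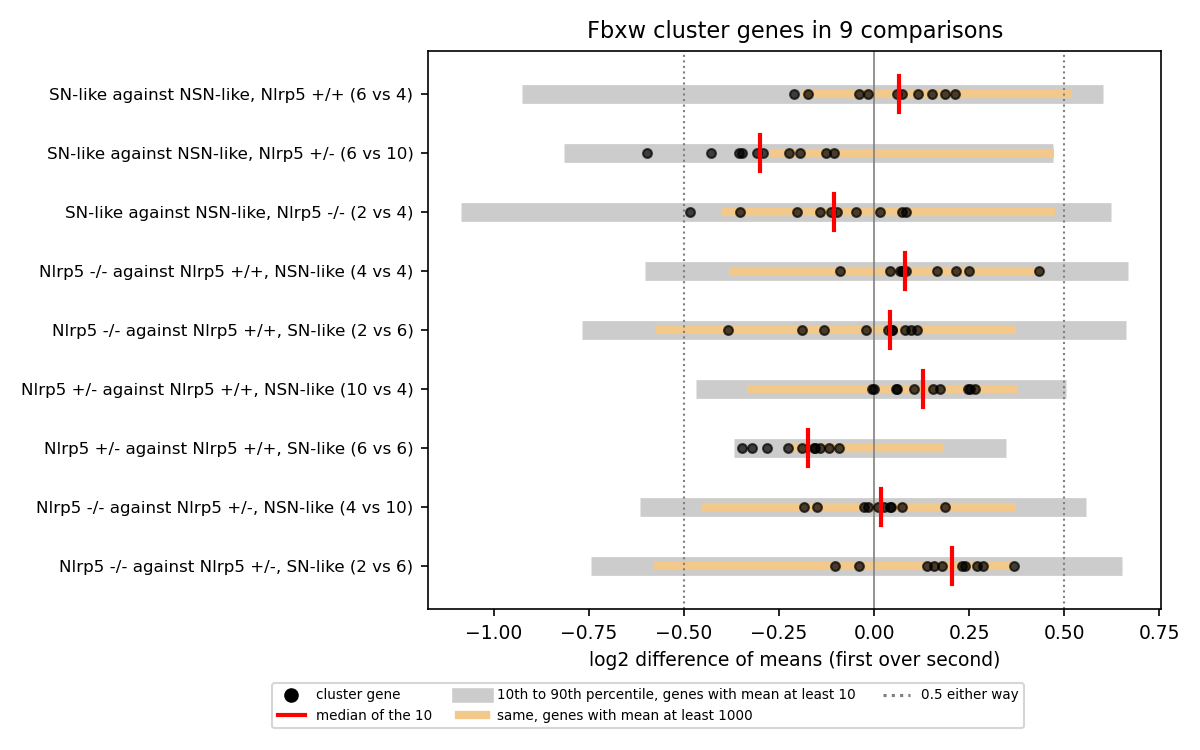
Log2 difference of each of the 10 members in 9 comparisons (points), with their median (red), the 10th to 90th percentile of all genes with a mean of at least 10 (grey) or 1000 (orange) and dotted lines at 0.5. Of 90 values, 1 lies past the limit, Fbxw22 at -0.60 in SN-like against NSN-like Nlrp5 +/- oocytes.

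The make-up of the cluster was described by the share of each member. As a share of the counts of the 10 genes, Fbxw24 averaged 24.7% over 32 oocytes (range 21.5% to 29.6%), Fbxw15 12.9%, Fbxw16 11.8% and Fbxw22 4.21%. Fbxw16 had the larger mean share in SN-like oocytes of each genotype, 12.1% ± 0.687 (SD, n = 6) against 10.9% ± 1.06 (SD, n = 4) in Nlrp5 +/+, 12.7% against 11.2% in Nlrp5 +/- and 13.4% against 11.5% in Nlrp5 -/- oocytes. Fbxw15, Fbxw18 and Fbxw19 went the same way in each genotype, by as little as 8.21% against 8.20% for Fbxw19 in Nlrp5 -/- oocytes. Shares are parts of 1 whole, so a smaller share of 1 member means a larger share of others. Fbxw22 had the smaller mean share in SN-like oocytes, 3.98% against 4.49%, 3.66% against 4.49% and 4.19% against 4.42% in the same order of genotypes. The Fbxw22 shares of the 6 SN-like Nlrp5 +/- oocytes were close together, from 3.56% to 3.84%, whereas the 10 NSN-like ones ran from 3.59% to 5.17%. Fbxw24 went from 27.3% to 23.2% in Nlrp5 +/+ and from 26.0% to 23.7% in Nlrp5 +/- oocytes, and from 23.5% to 23.3% in Nlrp5 -/- oocytes. The ranges of NSN-like and SN-like oocytes overlapped in each of these cases, as for Fbxw24 in Nlrp5 +/+ oocytes with 23.9% to 29.6% against 22.1% to 24.9%. The count ratio of Fbxw28 to Fbxw14 ran from 0.782 to 1.44 with a median of 1.07.

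The second set of comparisons asked whether loss of Nlrp5 went with other Fbxw levels. In NSN-like oocytes 9 of 10 members were higher in Nlrp5 -/- than in Nlrp5 +/+ by sign, with a median log2 difference of 0.08 (0.00 over 13893 genes). None was past the limit, where 15.7% of all genes were higher and 13.4% lower. Fbxw28 had the largest difference at 0.43 and was the 1 member without overlap (3.95% of all genes were higher and 3.14% lower without overlap, and 5.53% of those with a mean of at least 1000 were higher). Its 4 Nlrp5 -/- oocytes had 9573, 10722, 11048 and 11297 normalized counts and its 4 Nlrp5 +/+ oocytes 5607, 8452, 8709 and 8797. The lowest of these, oocyte 87, was the lowest of its group in 10 of 10 members.
Fbxw14 differed by 0.08, with 4547, 9736, 10276 and 10895 in Nlrp5 +/+ oocytes. The sum of the pair differed by 0.26 with overlap, 16564 to 22691 against 10154 to 19692, so the groups were apart for Fbxw28 and not for the pair. Fbxw24 was the member that was lower, at -0.09. Without oocyte 87 the median of the members became -0.05, and it also turned negative without oocyte 14.
Markers of other kinds differed in the same comparison. Of 13 granulosa markers that passed the filter 10 were higher past the limit in NSN-like Nlrp5 -/- oocytes and none lower, and all 16 summed to 92.1 to 722 CPM against 78.6 to 107 in Nlrp5 +/+ oocytes. Of 105 NSN markers 41 were higher past the limit and 3 lower, with a median of 0.37. Their part in the member values was not tested.

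In SN-like oocytes the members ran from -0.38 in Fbxw14 to 0.11 in Fbxw16 for Nlrp5 -/- over Nlrp5 +/+, with a median of 0.04 (0.00 over 13401 genes), 6 higher and 4 lower. None was past the limit (15.9% of all genes were higher and 18.7% lower), and all overlapped (7.22% higher and 7.83% lower without overlap). Only 2 Nlrp5 -/- oocytes stand behind these values, and the 2 classes were not alike in their NSN markers. Of 101 such markers 54 were higher past the limit in the Nlrp5 -/- oocytes and 8 lower, with a median of 0.64. Of 11 granulosa markers that passed 7 were higher and none lower, and all 16 summed to 139 to 220 CPM against 97.1 to 125. Their part in these values was not tested. The sum of Fbxw14 and Fbxw28 differed by -0.25, also with overlap. Without oocyte 31 the member median was -0.12.

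The heterozygous oocytes were set against Nlrp5 +/+ oocytes in the same way. These comparisons share the Nlrp5 +/+ oocytes with those above. In NSN-like oocytes the median was 0.13 (0.04 over 13776 genes), from 0.00 in Fbxw21 to 0.27 in Fbxw18, with 9 members higher and 1 lower. This direction turned with medians over oocytes (-0.07, 3 higher and 7 lower) and without oocyte 87 (-0.03, 4 higher and 6 lower). In SN-like oocytes the median was -0.17 (0.00 over 13334 genes), from -0.09 in Fbxw28 to -0.35 in Fbxw19, with all 10 lower by sign. None was past the limit at either stage. At the NSN-like stage 10.2% of all genes were higher and 8.64% lower, and at the SN-like stage 5.33% and 5.71%. All members overlapped at both, where 0.102% and 0.0375% of all genes were higher and 0.218% and 0.127% lower without overlap. The difference between the stages was not tested. Fbxw14 and Fbxw28 summed differed by 0.15 and -0.18 at the 2 stages. Averaged by genotype with no regard to stage the median was 0.01. Of the granulosa markers that passed, 6 of 8 were higher past the limit in NSN-like and 4 of 7 in SN-like Nlrp5 +/- oocytes and none lower, and of the theca and stroma markers 5 of 6 and 4 of 6 were higher, with 1 lower at the SN-like stage. Of the NSN markers 17 of 104 and 29 of 98 were higher and 5 and 2 lower. The part of these markers in the member values was not tested.
Set against their Nlrp5 +/- littermates, Nlrp5 -/- oocytes had a member median of 0.02 when NSN-like, from -0.19 in Fbxw20 to 0.19 in Fbxw28, and of 0.21 when SN-like, from -0.10 in Fbxw14 to 0.37 in Fbxw22. The first median was -0.12 without oocyte 14, and the second was 0.06 without oocyte 31, which leaves 1 SN-like Nlrp5 -/- oocyte. The medians over all genes were 0.00 and 0.01. None was past the limit, where 12.2% and 15.4% of all genes were higher and 14.4% and 18.3% lower. All members overlapped, where 0.389% and 5.94% of all genes were higher and 0.584% and 6.43% lower without overlap. Summed, Fbxw14 and Fbxw28 differed by 0.11 and -0.07. With no regard to stage the median was 0.00. Granulosa markers were higher past the limit in 8 of 12 cases at the NSN-like stage and none lower, and in 6 of 11 at the SN-like stage with 1 lower. NSN markers were higher in 28 of 105 and 35 of 99 cases and lower in 6 and 11. Their part in the member values was not tested either.

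Across the oocytes the members moved together. Over 32 oocytes the Pearson correlation of log2 values between 2 members ran from 0.35 (Fbxw20 and Fbxw21) to 0.90 (Fbxw22 and Fbxw24) with a median of 0.73 over 45 pairs. After each group of 1 genotype and stage was centred the median was 0.77, and after centring within first index it was 0.69. The members of an oocyte share its library and scaling, and near copies share reads. The SD of a member over the oocytes was 0.27 to 0.41 log2 units (median 0.33), against a median of 0.37 for genes with a mean of at least 1000, which the median of the members lay below.
The log2 cluster sum had a correlation of -0.19 with the log2 total count and 0.01 with the number of genes detected. The correlation was 0.27 with the stage score, 0.21 with granulosa marker RNA and 0.00 with Nlrp5 and with the summed oocyte markers. For comparison with other genes, the mean standardised profile of the 10 members was used. Of 1815 other genes with a mean of at least 1000, 5.40% reached 0.5 with this profile.

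The other cluster genes followed the same profile, with 0.88 for Fbxw27, 0.81 for Fbxw26 and 0.75 for both Fbxw13 and Fbxw25. Outside the row, Plxnb1 had -0.24, Shisa5 -0.13 and Tma7, which lies between them, 0.43. Among genes with a mean of at least 100 that are neither members nor these 4 cluster genes, the 8 most alike were Gyg at 0.81, Gm42494 at 0.80, Gm42756 at 0.79, Nlrp9c at 0.78, Ostc at 0.77, and Pex7, Rpl5 and Atp5pb at 0.74. Gyg encodes glycogenin, which primes glycogen synthesis, Ostc a subunit of the oligosaccharyltransferase, Pex7 a peroxisomal import receptor, Rpl5 a ribosomal protein and Atp5pb a subunit of ATP synthase. Gm42494 and Gm42756 lie on the plus strand over Fbxw16 and at the end of Fbxw15. The library kit does not mark strand, so reads from the stretches that both strands share cannot be told apart, which for Gm42756 and Fbxw15 are their ends alone.

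**Figure D5:**
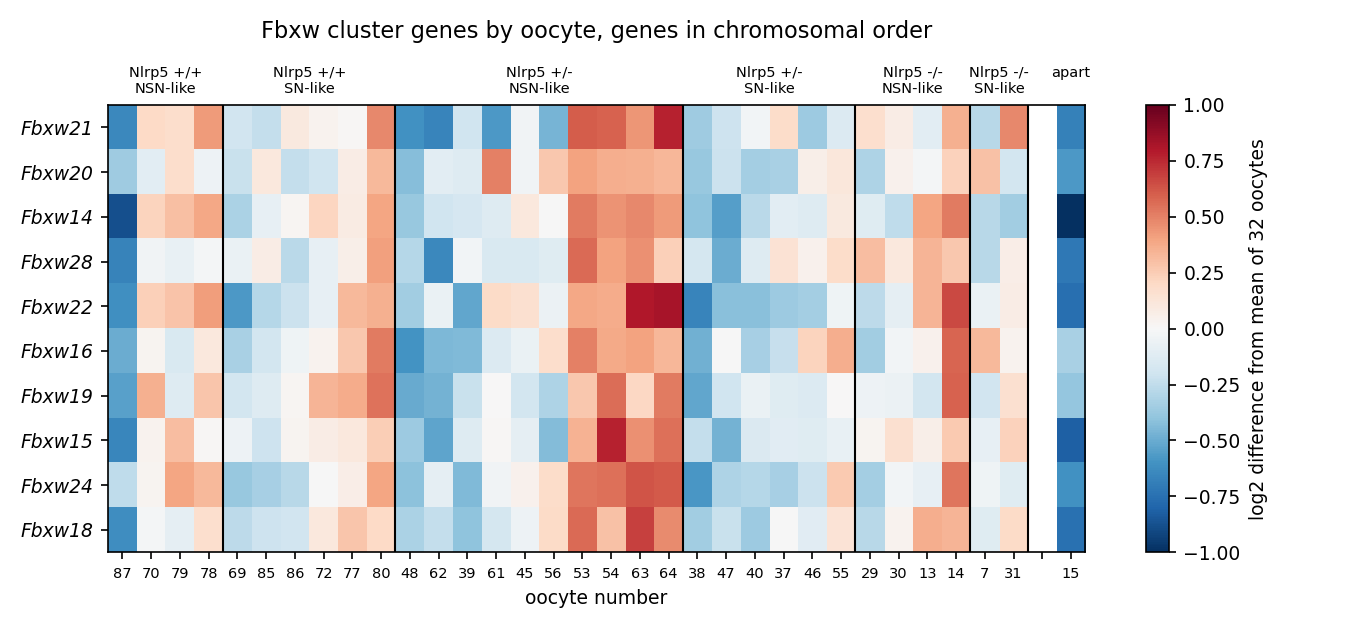
Log2 level of each member (rows, in chromosomal order) minus its mean over 32 oocytes, in each oocyte (columns, grouped by genotype and stage, oocyte 15 apart), from blue (low) to red (high). Columns tend to 1 colour from top to bottom, blue in oocyte 87 and red in oocytes 53, 54, 63, 64 and 14; the median correlation between 2 members is 0.73.

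The rest of the F-box system was read from lists of genes with known roles, by count past the limit and by median. Of 16 genes of the SCF core and its neddylation machinery, 15 were in the table and passed the filter. From NSN-like to SN-like 1 was higher and 2 lower in Nlrp5 +/+, none higher and 3 lower in Nlrp5 +/-, and 3 higher and 6 lower in Nlrp5 -/- oocytes. Over all genes 14%, 8.87% and 14.4% were higher and 20%, 19.1% and 23.8% lower in the same order. Rnf7, a RING partner of cullins, was lower in SN-like oocytes by sign and size in Nlrp5 +/+ (-0.70) and Nlrp5 +/- (-0.93). In SN-like Nlrp5 -/- against Nlrp5 +/+ oocytes 1 was higher and 3 lower, with a list median of -0.16, where 15.9% of all genes were higher and 18.7% lower. Dcun1d1, which helps the transfer of the modifier NEDD8 to CUL1, differed by -1.06 (2658 against 5550 normalized counts), Nae1, of the NEDD8-activating enzyme, by -1.01 (1023 against 2058) and Cops5, of the signalosome that removes NEDD8, by -0.81 (905 against 1583). Cdc34, a ubiquitin-conjugating enzyme, differed by 0.66. In NSN-like oocytes none of the 15 was past the limit in that comparison. Only 2 SN-like Nlrp5 -/- oocytes stand behind the lower values, and the list medians over all 9 comparisons ran from -0.35 to 0.05.

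Of 16 listed other Fbxw genes, 14 passed. They include Fbxw13, Fbxw25, Fbxw26 and Fbxw27 of the cluster row, so the counts and medians are not of outside genes alone. Over the 9 comparisons between 0 and 3 were higher and between 0 and 4 lower past the limit, where 5.33% to 15.9% of all genes were higher and 5.71% to 23.8% lower, with list medians from -0.27 to 0.11. Fbxw4 was higher in SN-like than NSN-like Nlrp5 +/+ (0.58) and Nlrp5 -/- oocytes (0.83), and Fbxw11, the second beta-TrCP gene, lower (-0.51 and -0.84). In Nlrp5 +/- oocytes neither was past the limit, and Fbxw9 (-0.67) and Fbxw8 (-0.65) were lower. Of 10 other F-box genes of meiosis and the cell cycle, 9 passed. In SN-like Nlrp5 +/+ oocytes 5 of these were higher and 1 lower (14% and 20% of all genes), with a median of 0.51, and the list shares Fbxo45 with the NSN markers that set the stage. In Nlrp5 +/- oocytes 3 were higher and 1 lower (8.87% and 19.1% of all genes), with a median of 0.35. In Nlrp5 -/- oocytes 2 were higher and 1 lower (14.4% and 23.8% of all genes), with a median of 0.20. The list medians over all 9 comparisons ran from -0.07 to 0.51. Those higher in Nlrp5 +/+ oocytes included Fbxo5, which encodes the anaphase-promoting complex inhibitor EMI1 (0.60), Fbxo34 (0.62), Fbxo15 (0.80) and Skp2, of the SCF that targets p27 (0.55). The cluster members in the same comparison had a median of 0.07.
Of 8 oocyte transcription factor genes, 6 passed. In each genotype 3 of them were lower past the limit in SN-like oocytes and none higher, with medians of -0.57, -0.56 and -0.48, where 20%, 19.1% and 23.8% of all genes were lower. Tbpl2, the oocyte TATA-binding protein paralogue, differed by -1.89, -1.31 and -1.42, and Taf4b by -1.07, -0.63 and -0.65.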

How the data were processed

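Single-oocyte cDNA was made with a Smart-seq2-based G&T-seq protocol and Nextera XT libraries and sequenced as 150 bp paired-end reads. After trimming (Trim Galore) and spliced alignment (HISAT2) the authors left out libraries with fewer than 4000000 reads and deposited raw read counts per gene from SeqMonk; versions are not given in the sources used here. Their methods name GRCm39, but the deposited positions are GRCm38. How reads matching several genes were counted is not given, and the kit marks no strand. The table had 35373 entries, of which 52 with a repeated identifier were dropped.

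Counts were divided by median-of-ratios size factors over 11845 genes in Python 3.11.15 (scipy 1.17.1, pandas 2.3.3). A log2 difference is log2((mean + 1)/(mean + 1)) of normalized counts, for genes with a mean of at least 10 in the oocytes compared. Stage was scored as mean z of NSN minus SN markers and divided at -0.136 by exact 2-means. The calculation was tested on simulated data. All 10 members are named, from each list at most 4 genes a comparison past 0.5 with a mean of at least 100, and the 8 genes most like the member profile. The members and lists were chosen with earlier results of these data known. The authors' tables of differential expression were not used. Alternatives were other scalings, averages, filters, stagings and leaving out each oocyte.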

Additional observations from a re-analysis of the deposited data

Results flagged for a closer look

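Within the 5 groups of 4 or more oocytes, each member and the cluster sum was examined for a single oocyte far from the rest, 55 groups of values in all, of which 3 stood out. Chance gives about 1 in 20. Fbxw19 had 14782 normalized counts in oocyte 14 (Nlrp5 -/-, NSN-like), against 8642 to 9506 in the other 3 oocytes. Fbxw24 had 35063 in oocyte 55 (Nlrp5 +/-, SN-like), against 19505 to 25224 in the other 5. Fbxw28 had 5607 in oocyte 87 (Nlrp5 +/+, NSN-like), against 8452 to 8797 in the other 3.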

How the results depend on the processing

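Under 13 other settings for each stage or genotype comparison (14 for stage in Nlrp5 +/-) no member median reached 0.5 in size. The median stayed below 0 for SN-like against NSN-like Nlrp5 +/- oocytes under all of them (-0.40 to -0.09, and -0.35 to -0.24 leaving out each oocyte) and at or above 0 for Nlrp5 -/- against Nlrp5 +/- SN-like oocytes (0.00 to 0.29). Medians near 0 changed sign. For SN-like against NSN-like Nlrp5 +/+ oocytes the median was -0.04 by total counts, -0.08 with pooled sums, and -0.05 without oocyte 87, and it was 0.18 within first index. In Nlrp5 -/- oocytes the stage median was 0.03 without oocyte 14 and 0.01 with oocyte 15. For Nlrp5 -/- against Nlrp5 +/+ it was -0.02 with oocyte 15 (NSN-like) and -0.12 without oocyte 31 (SN-like). For Nlrp5 +/- against Nlrp5 +/+ NSN-like oocytes it was -0.07 with medians over oocytes and -0.03 without oocyte 87. For Nlrp5 -/- against Nlrp5 +/- NSN-like oocytes it was -0.14 with oocyte 15 and -0.12 without oocyte 14. Fbxw22 in SN-like against NSN-like Nlrp5 +/- oocytes stayed past 0.5 leaving out each oocyte (-0.67 to -0.51) but was -0.18 within first index, and without the 4 oocytes nearest the dividing value of the stage score 3 members were past 0.5 (Fbxw14, Fbxw22 and Fbxw24). With medians over oocytes, or without oocyte 55, 2 members were. In Nlrp5 -/- oocytes Fbxw14 was lower past 0.5 in SN-like oocytes by total counts, with pooled sums and without oocyte 7, 29 or 30, and Fbxw28 was without oocyte 31. Without oocyte 7 Fbxw21 was higher past 0.5 in SN-like Nlrp5 -/- than Nlrp5 +/- oocytes. The cause of these changes was not tested. The share of all genes past 0.5 depends on the filter: over 9 comparisons it was 11.05% to 38.2% at a mean of at least 10, 27.1% to 49.1% with no filter, 2.31% to 26.5% at 100 and 0.731% to 19% at 1000. The mean cluster sum, 121356, was 116649 to 121348 under other settings. No paired analysis was possible because the labels give the genotypes no shared replicate numbers and no result comes from a test.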

Other observations

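Oocyte 15 (Nlrp5 -/-), which entered no comparison, had the lowest cluster share of the 33 oocytes, 0.950% of its counts, and a cluster sum of 76211 normalized counts. For 8 of the 10 members it lay below all 32 other oocytes, as it did for 22.3% of 1825 genes with a mean of at least 1000. Its 16 granulosa markers summed to 2154 CPM, against 78.6 to 722 (median 121) in the other 32 oocytes. Their part in the low level was not tested.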
